A study of Mus musculus with 4 samples.

Results

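AP-1 is a family of dimeric transcription factors, and 10 of its mouse genes are described here: Jun, Junb and Jund, then Fos, Fosb, Fosl1 and Fosl2, and the related Atf3, Maff and Mafk. A peak was taken as belonging to a gene when the authors' gene annotation of that peak named it. Of the 10 genes, 8 had a peak in at least 1 of 3 deposited lists, among 6078 genes in all. The genes were set by name, in a choice made with earlier results of these data known. The peaks come from m6A-eCLIP, which sequences the mRNA fragments held by an antibody against N6-methyladenosine (m6A) after crosslinking. One population of cells expressed shRNA against Mettl3, the subunit that carries the catalytic site of the m6A writer complex. The other expressed control shRNA, which the title abbreviates as shLuc. Both were mouse embryonic fibroblasts expressing E1A and HRasV12, and both received doxorubicin at 0.2 µg/ml for 6 h, so every library carries the oncogenes and the DNA damage and none is untreated. There was 1 m6A-eCLIP library and 1 input library per condition, and no strain or passage is stated in the labels. With 1 library per condition no difference below has a replicate check or a test. The m6A libraries are labelled polyA RNA and the input libraries total RNA, so a fold over input compares unlike RNA fractions.

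Jun proteins pair with each other or with Fos proteins through a leucine zipper and bind AP-1 sites in DNA. Jun and Fos are immediate early genes, switched on within minutes by RAS and ERK signalling, by JNK and by genotoxic stress, and their mRNAs are short-lived. Maff and Mafk are small Maf proteins that lack an activation domain, and Atf3 is a stress-induced partner of Jun proteins. m6A is laid down on mRNA during transcription, is commonest near stop codons and in 3' UTRs, and in many transcripts shortens the life of the mRNA.

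Most AP-1 mRNAs carried m6A peaks, and most of those did so in both libraries. A peak over input was listed in 6 of the 10 genes in the Mettl3 shRNA list and in 7 in the control list. Of all RefSeq protein-coding genes the shares with a peak were 19.4% in the Mettl3 shRNA list and 20.1% in the control list. Many of those genes may not be expressed in fibroblasts, which was not analysed here. Jun, Junb, Jund, Fos, Fosb and Fosl2 had peaks in both lists. Atf3 had peaks in the control list and 0 in the Mettl3 shRNA list. Fosl1 had 0 peaks in both lists over input, but 1 peak in the authors' comparison of both m6A libraries. Maff and Mafk had 0 peaks in all 3 lists. Of all genes with a Mettl3 shRNA peak, 84.9% also had a control peak, and of all genes with a control peak, 82.8% also had a Mettl3 shRNA peak. For the AP-1 genes these counts were 6 of 6 and 6 of 7, which is near the background.

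The lists as a whole set the frame for these values. The Mettl3 shRNA list held 15417 peaks in 4651 genes and the control list 15439 peaks in 4765 genes, and all of these peaks exceeded 3 on the log2 scale. The comparison list held 1851 peaks in 1220 genes, all of them higher in the control, so it cannot show a peak that was higher after Mettl3 shRNA. Its smallest log2 difference was 0.50 and the largest p-value given by the authors 0.0499, so absence from it does not mean that a site was equal in both libraries. Mettl3 itself had 0 peaks in each list, and peaks give no transcript level, so how far Mettl3 fell was not analysed. Of 13 fibroblast markers, 5 had a Mettl3 shRNA peak and 4 a control peak, Pdgfra and Pdgfrb among them. None of 16 haematopoietic, epithelial and endothelial markers had a peak in any list. Of 5 neural markers, 2 had a peak, with Mettl3 shRNA only, namely Sox2 (largest log2 fold 5.34) and Tubb3 (6.58). The other neural markers had no peak in any list. In bulk RNA, fewer cells with a transcript and less RNA per cell cannot be told apart.

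Neighbouring peaks of a gene often touched without a gap, so such pieces were joined into stretches. The 10 genes held 89 pieces in 10 stretches in the Mettl3 shRNA list and 80 pieces in 11 stretches in the control list. These covered 2879 bases in the Mettl3 shRNA list and 3089 bases in the control list, a ratio of 0.93, against 0.96 for all peaks of the lists. The ratio for the AP-1 genes was thus close to that of the lists as a whole. All 89 Mettl3 shRNA pieces overlapped a control peak by at least 1 base on the same strand, as did 83.7% of all Mettl3 shRNA peaks. Of the 80 control pieces, 77 overlapped a Mettl3 shRNA peak (96.3%, exact Clopper-Pearson 95% interval 89.4 to 99.2), against 81.1% of all control peaks. The interval covers counting error only and treats touching pieces as independent. Jun, Junb and Jund gave 40, 14 and 28 of the Mettl3 shRNA pieces and 33, 20 and 17 of the control pieces. These piece shares therefore mostly describe the Jun genes. The 3 unmatched control pieces were both pieces of Atf3 and a 17-base piece in the 5' UTR of Jun.

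**Figure D1:**
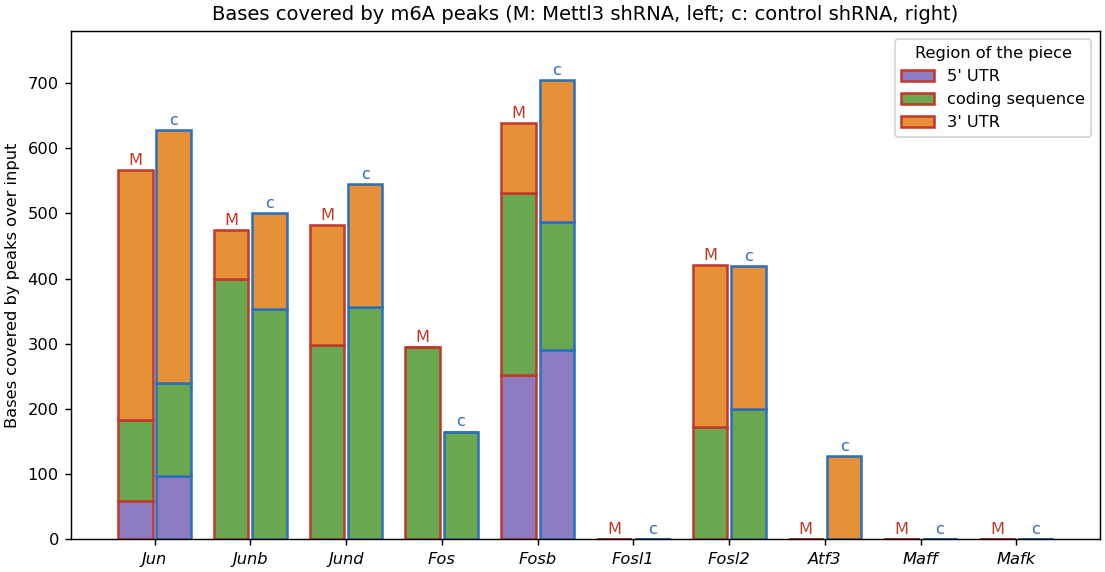
Bases covered by peaks over input in each AP-1 gene, split by the region of the piece, for Mettl3 shRNA (left bar, red outline, M) and control shRNA (right bar, blue outline, c), 1 library each. Jun, Junb, Jund, Fosb and Fosl2 have similar bars in both libraries, Fos has 295 bases with Mettl3 shRNA and 165 with control shRNA, and Atf3 has a bar of 127 bases in the control only.

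By largest fold, the Jun genes held the strongest AP-1 peaks. Jun encodes c-Jun, the activating AP-1 subunit phosphorylated by JNK. It lies on chromosome 4 from 95049036 to 95052222 (mm10, minus strand, RefSeq) and, like Junb and Jund, has no intron. Its largest log2 fold over input was 6.31 in the Mettl3 shRNA list and 5.88 in the control list. These exceed the largest fold of 98.9% of all Mettl3 shRNA genes and of 99.4% of all control genes. Jun thus stood near the top of both lists whatever the shRNA.

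The main stretch of Jun ran from the end of the coding sequence into the 3' UTR. It covered 509 bases in the Mettl3 shRNA list, from 95049864 to 95050372, and 532 bases in the control list, from 95049850 to 95050381. The Mettl3 shRNA stretch had 38 pieces, with log2 folds from 4.67 to 6.31. The control stretch had 30 pieces, with log2 folds from 3.73 to 5.88. Both libraries showed the same 2-humped profile. In the Mettl3 shRNA list the higher hump reached 6.31 at 95049973 to 95049976, the trough between the humps 5.45 at 95050141 to 95050144 and the lower hump 5.78 at 95050221 to 95050222. In the control list the higher hump reached 5.88 at 95049977 to 95049980, the trough 4.79 at 95050112 to 95050122 and the lower hump 5.33 at 95050222 to 95050231. The tops of the higher hump were adjoining pieces of 4 bases, so the site of strongest enrichment was nearly the same base in both libraries. Since Jun is on the minus strand, the higher hump lies deeper in the 3' UTR and the lower one next to the coding sequence.

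A second, weaker stretch lay in the 5' UTR of Jun. It covered 58 bases in the Mettl3 shRNA list (95051395 to 95051452, log2 fold up to 3.69) and 96 bases in the control list (95051373 to 95051468, up to 3.41). A 5' UTR peak was present in 2 of the 6 AP-1 genes of the Mettl3 shRNA list and 2 of the 7 of the control list, namely Jun and Fosb. Among all genes of the lists, 4.52% of the Mettl3 shRNA list and 3.44% of the control list had one.

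Junb, which encodes a weaker activator that can oppose c-Jun, had 2 separate stretches of similar strength (chromosome 8, minus strand). The first lay within the coding sequence and covered 238 bases in the Mettl3 shRNA list (84977950 to 84978187) and 243 bases in the control list (84977939 to 84978181). Its top was a log2 fold of 5.64 at 84978069 to 84978079 with Mettl3 shRNA and 5.08 at 84978083 to 84978093 with control shRNA. The second spanned the end of the coding sequence and the 3' UTR, with 237 bases and a top of 4.98 in the Mettl3 shRNA list and 257 bases and a top of 4.79 in the control list. In both libraries the strongest Junb piece was therefore inside the coding sequence, whereas the strongest pieces of Jun and Jund lay in the 3' UTR.

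Jund encodes a broadly expressed member that restrains growth in many cells, and its peak matched Jun in strength (chromosome 8, plus strand). Its top piece had identical ends in both lists, 70700149 to 70700158 in the 3' UTR, at a log2 fold of 6.30 with Mettl3 shRNA and 5.87 with control shRNA. The stretch around it covered 333 bases in the Mettl3 shRNA list (70699948 to 70700280) and 366 bases in the control list (70699936 to 70700301). A coding-sequence stretch upstream was barely over the limit of the lists, with tops of 3.61 in the Mettl3 shRNA list and 3.28 in the control list. Jund was cut into 28 pieces with Mettl3 shRNA and 17 with control shRNA while covering fewer bases with Mettl3 shRNA (482 against 545). The number of pieces is therefore no measure of how much of an AP-1 mRNA was enriched.

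**Figure D2:**
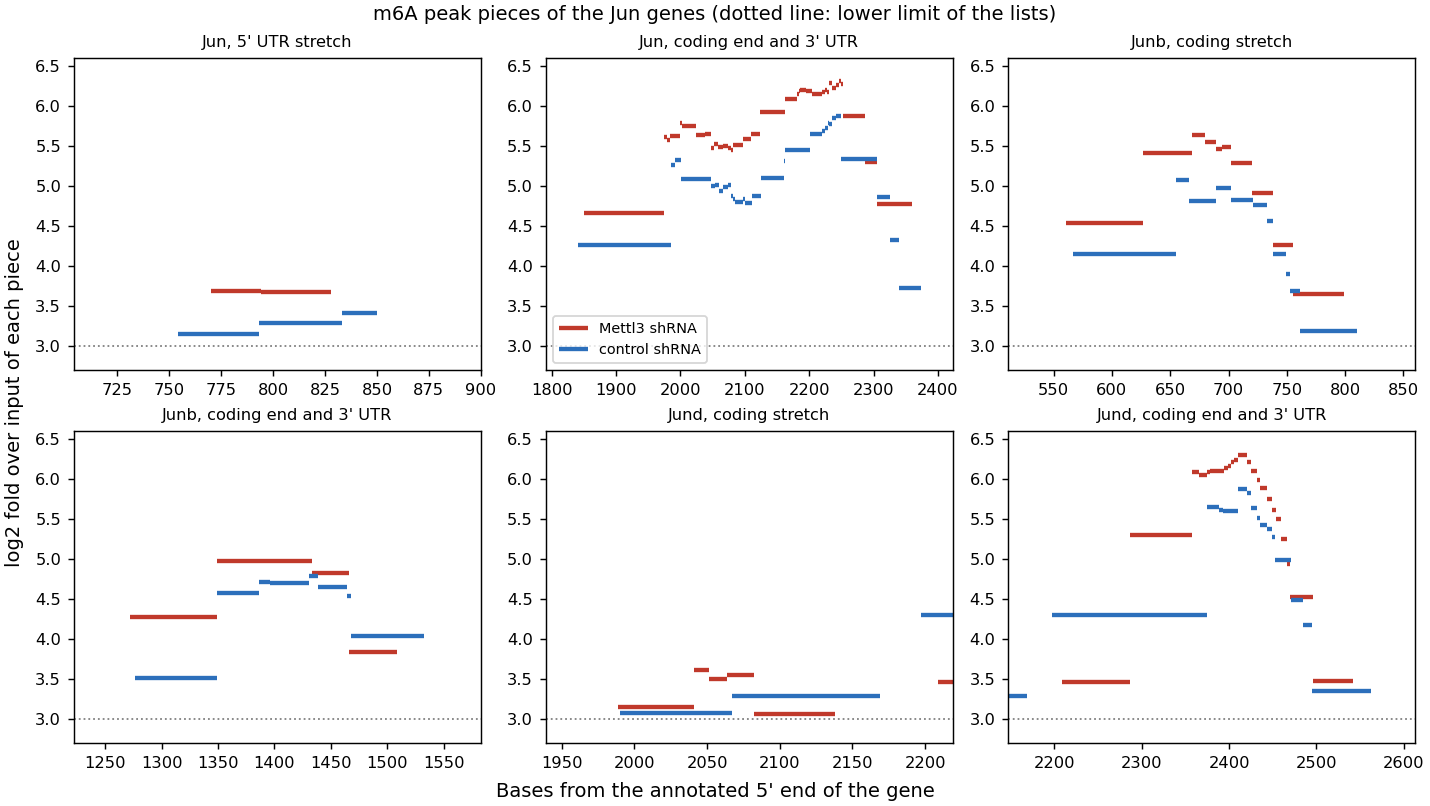
Log2 fold over input of each peak piece of Jun, Junb and Jund along the gene, in bases from the annotated 5' end, for Mettl3 shRNA (red) and control shRNA (blue), 1 library each; the dotted line marks the limit of 3. Both libraries trace the same shapes, with tops of 6.31 (Mettl3 shRNA) and 5.88 (control shRNA) in Jun, and the red pieces lie above the blue ones over most of each stretch.

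The Fos genes had lower largest folds than the Jun genes, though with control shRNA Fosl2 (5.07) nearly reached Junb (5.08). Averaged over covered bases, Fosl2 was not weaker with control shRNA, at 4.74 against 4.60 for Jun, 4.18 for Junb and 4.03 for Jund. With Mettl3 shRNA its mean was 4.59, against 5.24 for Jun, 4.63 for Junb and 4.30 for Jund. Fos encodes c-Fos, the classic immediate early partner of c-Jun. It had 1 piece in each list, both in the coding sequence on chromosome 12 (plus strand), at a log2 fold of 3.37 with Mettl3 shRNA and 3.19 with control shRNA. The piece covered 295 bases in the Mettl3 shRNA list (85476011 to 85476305) and 165 bases in the control list (85476068 to 85476232). The wider one contained the narrower. Both lay close to the limit of 3, and the 3' UTR of Fos had 0 peaks in either list. The largest fold of Fos exceeded that of 17.1% of Mettl3 shRNA genes and 10.2% of control genes, so c-Fos mRNA was among the weaker listed transcripts.

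Fosb, which encodes another activating partner of Jun proteins, had 2 stretches in each list (chromosome 7, minus strand). At the end of the coding sequence and the 3' UTR it covered 387 bases in the Mettl3 shRNA list (19304576 to 19304962, log2 fold 3.09 to 3.88) and 415 bases in the control list (19304560 to 19304974, 3.51 to 4.21). In the 5' UTR it covered 252 bases in the Mettl3 shRNA list (19309647 to 19309898, log2 fold 3.94) and 290 bases in the control list (19309588 to 19309877, 3.53). The strongest piece of Fosb was thus a 5' UTR piece with Mettl3 shRNA and a coding piece with control shRNA.

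Fosl2, which encodes Fra-2, had the strongest peak of the Fos genes (chromosome 5, plus strand). A single stretch of 3 pieces spanned the end of the coding sequence and the 3' UTR, with 421 bases in the Mettl3 shRNA list (32153047 to 32153467) and 419 bases in the control list (32153052 to 32153470). Its piece nearest the 5' end stood at 4.035 with Mettl3 shRNA and 3.996 with control shRNA. The middle piece, also coding, stood at 4.43 with Mettl3 shRNA and 5.07 with control shRNA. Its 3' UTR piece stood at 4.90 with Mettl3 shRNA and 5.05 with control shRNA. The strongest piece was thus in the 3' UTR with Mettl3 shRNA and, by a small margin, in the coding sequence with control shRNA. The outer borders of this stretch differed by at most 5 bases between the libraries.

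Fosl1, which encodes Fra-1, an AP-1 protein raised in RAS-transformed cells, gave the one AP-1 peak of the authors' comparison. In the authors' deposited table it was higher in the control by 0.59 on the log2 scale (control minus Mettl3 shRNA, a 1.50-fold difference, p = 6.25e-06). The peak covered 64 bases of the 3' UTR on chromosome 19 (5455629 to 5455692, plus strand), 246 bases before the annotated end of the gene. The differences in the authors' deposited table started at 0.50 and had a median of 0.76, so this one lay near the lower end. Of them, 15.7% were smaller, and by p the peak ranked 251 of 1851. No peak over input was listed for Fosl1 with either shRNA, so its fold over input is not known beyond its absence from lists that start at 3. Among all 1220 genes of the comparison list, 49.9% likewise lacked a peak over input. One of the 10 AP-1 genes having such a peak compares with 5.52% of RefSeq protein-coding genes, and 0 of the 7 with a control peak compares with 12.2% of all genes with a control peak. Neither count of so few genes was tested.

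Atf3 was the one AP-1 gene with peaks over input in a single library. Its 2 touching control pieces covered 127 bases of the 3' UTR (chromosome 1, 191170670 to 191170796, minus strand) at log2 folds over input of 3.57 and 3.50. No Mettl3 shRNA peak lay there. The comparison list, limited in both difference (from 0.50) and p-value, had no entry for Atf3, which does not give the size of a difference. Both control pieces stood little above the limit of 3, and the lists do not give the fold of this site with Mettl3 shRNA.

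**Figure D3:**
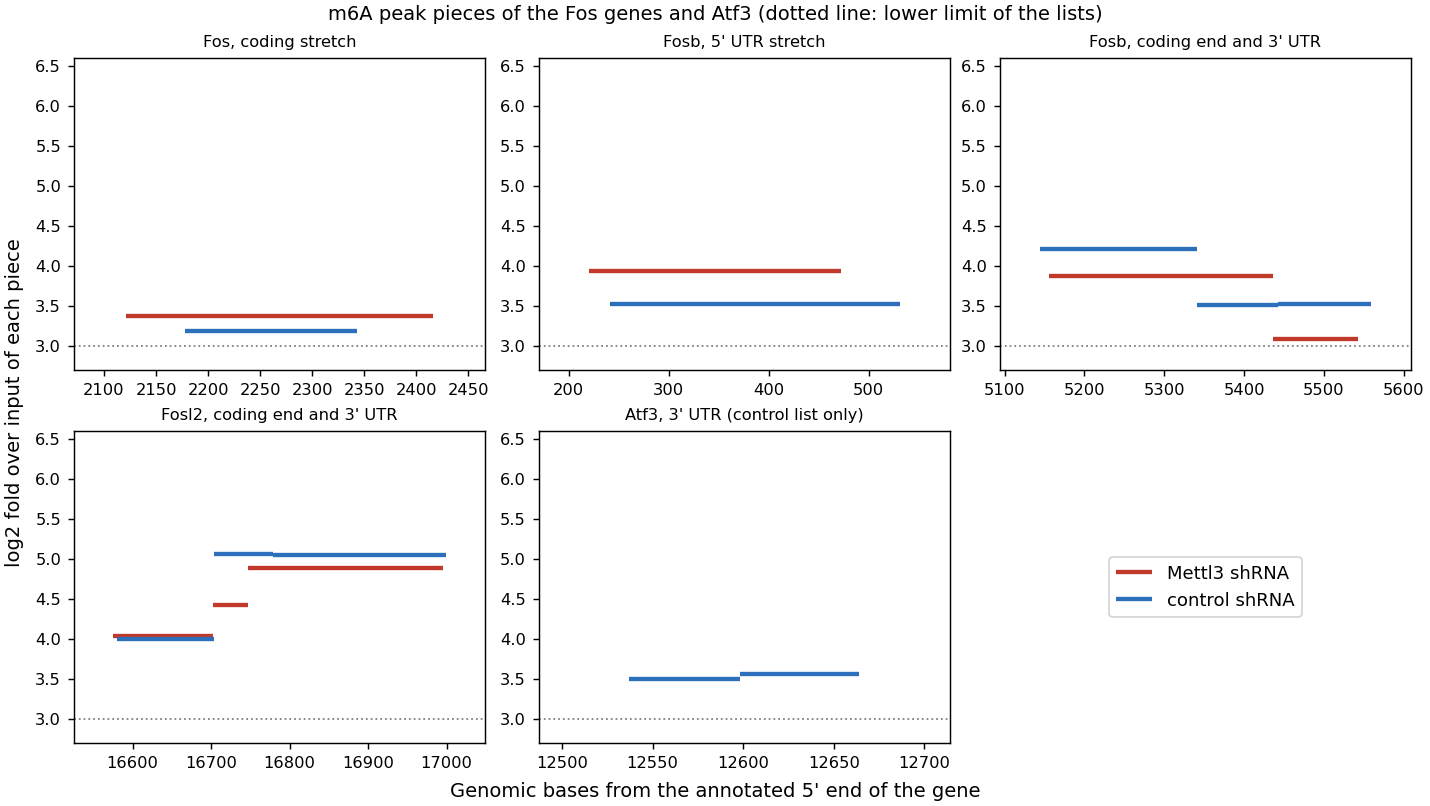
Log2 fold over input of each peak piece of Fos, Fosb, Fosl2 and Atf3, in genomic bases from the annotated 5' end of the gene, for Mettl3 shRNA (red) and control shRNA (blue), 1 library each; the dotted line marks the limit of 3. Fosl2 reaches 4.90 with Mettl3 shRNA and 5.07 with control shRNA, Fosb and Fos lie lower, and Atf3 has control pieces only.

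A stretch holding both coding-sequence and 3' UTR pieces, which places it across the end of the reading frame, was the feature most AP-1 genes shared. It was present in 5 of 6 AP-1 genes in the Mettl3 shRNA list and in 5 of 7 in the control list, in each case Jun, Junb, Jund, Fosb and Fosl2. Among all genes of the lists, 9.76% of the Mettl3 shRNA list and 11% of the control list had such a stretch. A peak at the upper limit of the deposited p-values (−log10 p of 400) was present in Jun, Junb, Jund and Fosl2 in both lists, 4 of 6 with Mettl3 shRNA and 4 of 7 with control shRNA. The background shares were 49.8% in the Mettl3 shRNA list and 52.7% in the control list, so this was not particular to AP-1 genes. A largest log2 fold of at least 5 was reached by 3 of 6 with Mettl3 shRNA (Jun, Junb and Jund) and by 4 of 7 with control shRNA (these and Fosl2). The shares among all genes were 13.3% in the Mettl3 shRNA list and 6.57% in the control list. 

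**Figure D4:**
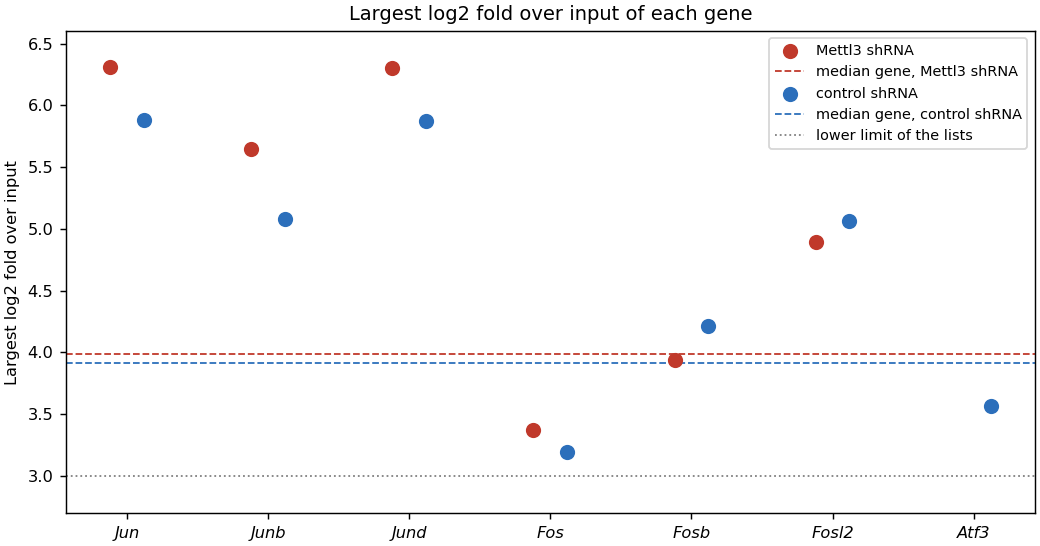
Largest log2 fold over input of each AP-1 gene with a peak, for Mettl3 shRNA (red, left) and control shRNA (blue, right), 1 library each; dashed lines are the medians over all genes of each list and the dotted line the limit of 3. Jun, Junb, Jund and Fosl2 lie above both medians, while Fos and Atf3 lie below them.

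By region, coding sequence took 54.5% of the covered AP-1 bases in the Mettl3 shRNA list and 45.8% in the control list. The 3' UTR took 34.8% with Mettl3 shRNA and 41.7% with control shRNA. Over all peaks, coding sequence took 64.9% with Mettl3 shRNA and 62.0% with control shRNA, and the 3' UTR took 22.8% with Mettl3 shRNA and 25.4% with control shRNA. AP-1 genes thus had a larger 3' UTR share than the lists as a whole in both libraries. Without Jun, left out after seeing the data, this share was 26.6% with Mettl3 shRNA and 36.6% with control shRNA. The 5' UTR took 10.8% of AP-1 bases with Mettl3 shRNA and 12.5% with control shRNA, against 1.90% and 1.73% over all peaks. Fosb held 252 of these 310 AP-1 bases with Mettl3 shRNA and 290 of 386 with control shRNA. The shift between the libraries turned at a log2 fold of at least 4. There the 3' UTR took 52.7% with Mettl3 shRNA and 50.9% with control shRNA, and coding sequence 47.3% and 49.1%. Part of the shift at the limit of 3 lay in the labels and not in the covered bases. Of 2712 AP-1 bases covered in both lists, 142 belonged to a coding-sequence piece with Mettl3 shRNA and a 3' UTR piece with control shRNA, and 60 had the opposite labels. Fosb gave 95 and Junb 47 of the 142, where the borders of the pieces differed between the lists. The 127 bases of Atf3 made up most of the rest of the difference in the 3' UTR.

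At bases covered in both lists, folds of the Jun genes were a little higher with Mettl3 shRNA. The difference is given as Mettl3 shRNA minus control shRNA, averaged over the shared bases of a gene, with each fold taken over its own input library. Only bases above the limit of 3 in both lists enter, so a site that fell below it in either library is left out. In the genes compared, 167 bases were covered with Mettl3 shRNA only and 250 with control shRNA only. Atf3, with control peaks only, has no shared bases. For Jun the mean log2 fold was 5.24 with Mettl3 shRNA and 4.71 with control shRNA, a difference of 0.53 over 567 bases. For Junb it was 4.63 with Mettl3 shRNA and 4.21 with control shRNA, a difference of 0.43 over 465 bases. For Jund it was 4.31 with Mettl3 shRNA and 4.11 with control shRNA, a difference of 0.20 over 481 bases. Fos had 3.37 with Mettl3 shRNA and 3.19 with control shRNA (difference 0.18), and Fosb had 3.77 with Mettl3 shRNA and 3.73 with control shRNA (difference 0.04). Fosl2 alone was lower with Mettl3 shRNA, at 4.59 against 4.74, a difference of -0.15.

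The differences of Jun and Junb lay above the upper quartile of all genes, and those of the other AP-1 genes lay between the quartiles. Over the 3825 genes with shared bases, the median difference was 0.06, with quartiles of -0.17 and 0.29, and 57.1% of genes had a higher mean with Mettl3 shRNA. Of the 6 AP-1 genes, 5 had a higher mean and 4 lay above the all-gene median. Relative to that median, Jun stood at 0.47, Junb at 0.37, Jund at 0.14, Fos at 0.12, Fosb at -0.02 and Fosl2 at -0.21. The differences of Jun and Junb exceeded those of 88.3% and 83.6% of genes, and all 6 lay within the central 95% of genes (-0.85 to 1.08). Whether input levels of these genes differed between the conditions was not tested.

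**Figure D5:**
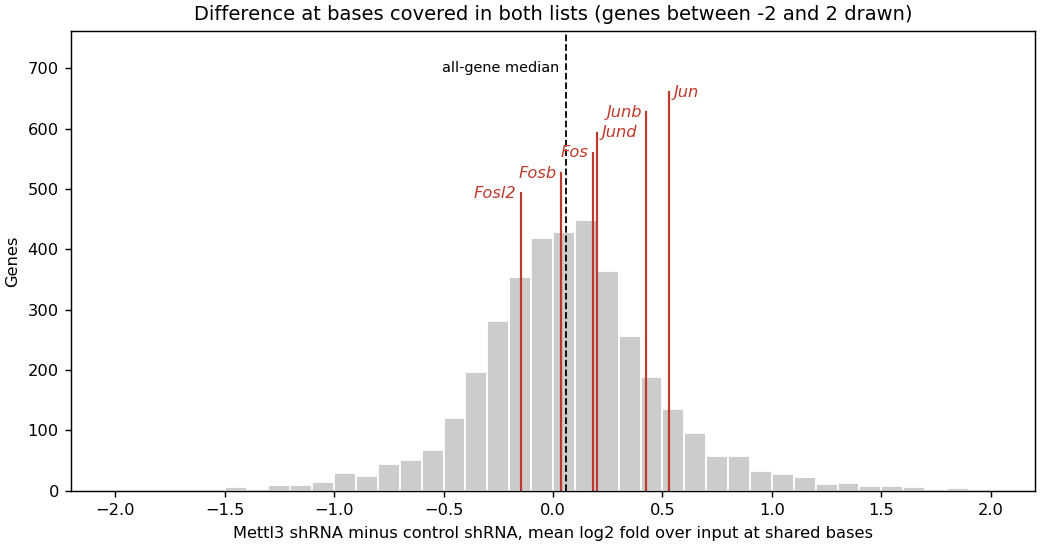
Histogram over genes of the mean log2 fold at shared bases, Mettl3 shRNA minus control shRNA, with the 6 AP-1 genes as red lines and the all-gene median of 0.06 dashed; 3809 of 3825 genes fall in the drawn range. The AP-1 genes run from -0.15 (Fosl2) to 0.53 (Jun), all within the central 95% of genes, with Jun and Junb above the upper quartile (0.29).

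The difference had a similar size in all regions of Jun, but varied between the regions of Junb, Jund and Fosb. A piece with identical ends in both lists allows a direct reading, and 16 AP-1 pieces had them, 8 in Jun, 6 in Jund and 2 in Junb. All 16 were higher with Mettl3 shRNA, by 0.37 to 0.57 in Jun, 0.38 to 0.47 in Jund and 0.49 to 0.51 in Junb. Pieces of a gene share reads and are not independent. Over all 219 pieces of the lists with identical ends, 68.0% were higher with Mettl3 shRNA and the median difference was 0.17. In Jun the mean difference was 0.45 in the 5' UTR, 0.48 in the coding sequence and 0.56 in the 3' UTR, with regions taken from the control pieces. In Junb it was 0.56 in coding pieces and 0.07 in 3' UTR pieces, and in Jund 0.14 in coding pieces and 0.31 in 3' UTR pieces. In Fosb it was 0.41 in 5' UTR pieces, -0.33 in coding pieces and -0.06 in 3' UTR pieces, so the differences within this mRNA had opposite signs. Base by base, the differences ran from -0.83 to 1.79 in coding pieces of Jund and from -0.71 to 0.29 in 3' UTR pieces of Junb. The lists cut these stretches at different borders, and how far that shaped the means by region was not tested.

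Fosb had most bases covered by control peaks among the AP-1 genes. Over the bases covered in coding sequence, 3' UTR and elsewhere in both lists (6 values), the genes closest to it by Bray-Curtis distance, among 3946 genes with peaks in both lists, were Nfe2l1 (0.07), Heg1 (0.14) and Rnpepl1 (0.14). For Nfe2l1 the Mettl3 shRNA list held 318 coding, 164 3' UTR and 256 other bases, and the control list 234, 194 and 251. The same values for Fosb were 280, 107 and 252 with Mettl3 shRNA and 197, 218 and 290 with control shRNA.

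Other genes of the AP-1 pathway are given as counts, to be read against the shares among all RefSeq protein-coding genes of 19.4% for Mettl3 shRNA peaks, 20.1% for control peaks and 5.52% for peaks higher in the control. Of 21 further ATF, Maf and related leucine zipper genes, 10 had a Mettl3 shRNA peak and 8 a control peak, and 0 had a peak higher in the control, a count too low to differ visibly from 5.52%. The 2 with a Mettl3 shRNA peak only were Maf, with a largest log2 fold of 6.27, and Batf2, with 3.89. Of 21 kinases and factors that switch on Fos and Jun, 12 had a Mettl3 shRNA peak and 12 a control peak, and 4 had a peak higher in the control. Among them, in the authors' deposited table, were the ERK-activated kinase Rps6ka3 (1.66, p = 3.35e-05), the ternary complex factor Elk3 (1.37, p = 0.00316) and the JNK-activating kinase Map2k7 (0.79, p = 0.00141), as log2 differences of control minus Mettl3 shRNA. Rps6ka3 had no Mettl3 shRNA peak over input, and Mapk3, which encodes ERK1 and was chosen after its values were seen, had one with Mettl3 shRNA only (3.41).

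AU-rich element binding proteins act on Fos and Jun mRNA by hastening or slowing its decay. Of 8 such genes, 3 had a Mettl3 shRNA peak and 3 a control peak. In the authors' deposited table a peak of Elavl1, whose protein HuR stabilises such mRNAs, was higher in the control by 0.76 (p = 6.42e-04). A peak of Zfp36l2, a decay factor, was higher in the control by 0.54 in the authors' deposited table (p = 1.53e-07). Over its shared bases, however, Zfp36l2 was higher with Mettl3 shRNA by a mean of 0.31, or 0.25 relative to the all-gene median. Its largest log2 fold over input was 5.73 with Mettl3 shRNA and 5.43 with control shRNA. Elavl1 had no peak over input in either list. Khsrp had a peak with Mettl3 shRNA only (3.39) and Tial1 with control shRNA only (3.01). Of 21 AP-1 target genes of fibroblasts, 5 had a Mettl3 shRNA peak, 6 a control peak and 0 a peak higher in the control, all near the background shares. Cd44 had a peak with Mettl3 shRNA only (3.23), while Plaur, the urokinase receptor gene (3.62), and Tgfb1 (3.01) had one with control shRNA only. Among these pathway genes, all single-library folds apart from that of Maf lay within 1 log2 unit of the limit of the lists.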

How the data were processed

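The reads were processed by the authors with UMI-tools 0.5.1 and cutadapt 2.7, with mm10 as the build, per the submitters' processing notes. Alignment, peak calling and testing are steps not given in the sources used here. For each m6A-eCLIP library the deposited list gives every peak's log2 fold over input and its −log10 p-value, which ends at 400. In the comparison of both m6A libraries the authors deposited a log2 difference and a p-value per peak. Every fold and p-value of a peak was computed by the authors. Where 5 peaks had identical ends in all 3 lists, the deposited difference equalled control minus Mettl3 shRNA log2 fold within 1e-06 in 5 of 5, which is why folds of both lists are set side by side.

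Starts were read as 0-based, since 7590 Mettl3 shRNA and 7410 control neighbours shared a border and 0 overlapped, and are printed 1-based. Touching pieces (gap of 0 bases) were joined. Gene ends come from RefSeq (GRCm38.p6, the assembly of mm10). Folds were averaged over bases with Python 3.11.15, pandas 2.3.3, numpy 2.4.6 and scipy 1.17.1, and plots were drawn with matplotlib 3.10.9. Joining and averaging were tested on simulated data. Read depth is unknown from these lists, so no interval on folds is given. No test was made, for want of replicates. All 10 members are named, pathway genes were named if higher in the control or listed with 1 shRNA only (up to 4 a list), and the 3 genes nearest to the member with most control bases. Members and lists were chosen with earlier results of these data known. Peak sequences were not analysed here. A gene that the rule names is not reported here.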

Additional observations from a re-analysis of the deposited data

How the results depend on the processing

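No paired analysis was possible because each condition had 1 library. Of 37 alternative values, 23 stayed within the tolerance and 14 did not. The tolerance was 1.5-fold for counts and bases, the mean arm of the exact 95% interval over pieces for shares, and 0.1 for log2 differences, so some drops in counts stay inside it. With a log2 fold of at least 4 the AP-1 genes with a peak were 4 with Mettl3 shRNA and 5 with control shRNA. The covered AP-1 bases were then 1528 with Mettl3 shRNA and 1655 with control shRNA. At this limit the 3' UTR share was 52.7% with Mettl3 shRNA and 50.9% with control shRNA, and the coding share 47.3% and 49.1%. At the upper limit of −log10 p, 4 genes had a peak in each list, on 1945 bases with Mettl3 shRNA and 2092 with control shRNA. Counting deposited pieces in place of stretches gave 89 with Mettl3 shRNA and 80 with control shRNA. As shares of pieces, coding sequence took 28.1% with Mettl3 shRNA and 27.5% with control shRNA, and the 3' UTR 68.5% and 67.5%. The order of the regions thus depends on counting pieces or bases, and on the fold limit. As shares of bases, 94.2% of Mettl3 shRNA and 87.8% of control coverage was shared, against 76.3% and 72.9% of all Mettl3 shRNA and control coverage. With a log2 difference of at least 1, 0 AP-1 genes had a peak higher in the control. The median AP-1 difference, Mettl3 shRNA minus control shRNA, was 0.19, and 0.30 from the largest folds. Leaving out Jun or centring on the all-gene median, both chosen after seeing the data, kept its sign. The absent read depth limits all folds near 3. For the values that moved, the cause was not tested, except that fewer pieces pass a stricter minimum.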
